A study of Homo sapiens with 12 samples.

Results

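Knockdown of FDPS was compared directly with knockdown of SQLE in T24 cells, without the control siRNA as the reference. The comparison held 6 of the 12 RNA-seq libraries of the series, chosen by their labels: 3 transfected with siFDPS (genotype label FDPS knockdown) and 3 with siSQLE (genotype label SQLE knockdown). T24 is an established human cell line from transitional cell cancer of the bladder (BLCA). The study asked how the mevalonate (MVA) pathway acts in BLCA, and it also sequenced 3 siNC libraries (control siRNA, genotype label WT) and 3 siYY1 libraries of the same cells. All cells therefore carried a transfected siRNA, and the labels give 3 biological replicates a group. The methods name 1 FDPS siRNA for the sequencing, the number used for SQLE is not given in the sources used here, and for FDPS an effect of the lost enzyme and an effect of the siRNA sequence cannot be told apart.

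The MVA pathway turns acetyl-CoA into isoprenoids. FDPS (farnesyl diphosphate synthase) makes farnesyl pyrophosphate (FPP), and at FPP the pathway branches: one arm leads through squalene to cholesterol, and the others lead to geranylgeranyl pyrophosphate, dolichol, ubiquinone and the prenyl groups of small GTPases. SQLE (squalene epoxidase) acts after the branch, on the sterol arm alone. Transcription of most enzymes of the pathway is driven by SREBP factors, which SCAP carries out of the endoplasmic reticulum when sterols are low and which INSIG proteins hold back when sterols are high.

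The deposited values were counts per transcript, summed here to counts per gene. Levels are given in CPM (counts as a share of the library total, scaled by TMM), with means ± SD of 3 libraries, and differences as the log2 fold change of siFDPS minus siSQLE ± SE from edgeR. Adjusted p-values are from edgeR's quasi-likelihood test and were adjusted by the Benjamini-Hochberg method across every gene tested. Library totals lay between 51307581 and 59938677 counts in the 6 libraries. Mitochondrial genes took 5.20% to 5.39% of counts in siFDPS and 3.68% to 3.92% in siSQLE libraries, a difference whose part in the results below was not tested. KRT7, KRT8 and KRT18, keratins of simple epithelium, were high in all groups, while UPK1B and UPK3A, uroplakins of the bladder surface, had no counts in the 6 libraries. The 18 markers of other cell types summed to 4.90 to 6.35 CPM in siFDPS, 25.3 to 26.1 CPM in siSQLE and 11.8 to 13.0 CPM in siNC libraries, with 16 and 15 of the 18 under 1 CPM in all siFDPS and all siSQLE libraries, and their part in the results was not tested.

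Both targets answered to their labels. FDPS (ENSG00000160752) stood at 24.6, 24.3 and 24.7 CPM in the siFDPS libraries and at 159, 170 and 161 CPM in the siSQLE libraries, while the mean of siNC was 87.0 ± 3.38 CPM (SD, n = 3). SQLE (ENSG00000104549) stood at 31.3, 33.4 and 30.2 CPM in siSQLE and at 86.4, 87.9 and 86.3 CPM in siFDPS libraries, against 116 ± 12.1 CPM in siNC libraries. The groups did not overlap for either gene, and each target was lowest in its own knockdown. Lack of overlap was common, found for 11520 of the 18979 genes tested (60.7%). The log2 fold change was −2.71 ± 0.06 for FDPS (adjusted p = 7.17e-06) and 1.48 ± 0.07 for SQLE (adjusted p = 1.8e-05). The FDPS difference was larger than its fall against siNC (log2 −1.83), since FDPS was also 0.90 log2 units above siNC in the siSQLE libraries (adjusted p = 0.00023).

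The 2 knockdowns left T24 cells with widely different transcriptomes. Of 18979 genes tested, 9440 were differentially expressed (DEGs; 49.7% called), 4570 higher in siFDPS (24.1%) and 4870 lower (25.7%). Among them, 1470 were higher and 2052 lower by at least 2-fold. Among the 14496 genes with at least 50 counts on average the shares were 56.6% in either direction, 27.5% higher and 29.1% lower. The shares of each gene list below are to be read against these. Against siNC, 50.8% of the genes tested were called for siFDPS (24.1% higher, 26.7% lower) and 30.2% for siSQLE (15.4% higher, 14.8% lower), a count of 5744 genes that was 3525 with a replicate block. Those comparisons share the siNC libraries, and their values are given side by side only to place the 2 knockdowns.

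**Figure D1:**
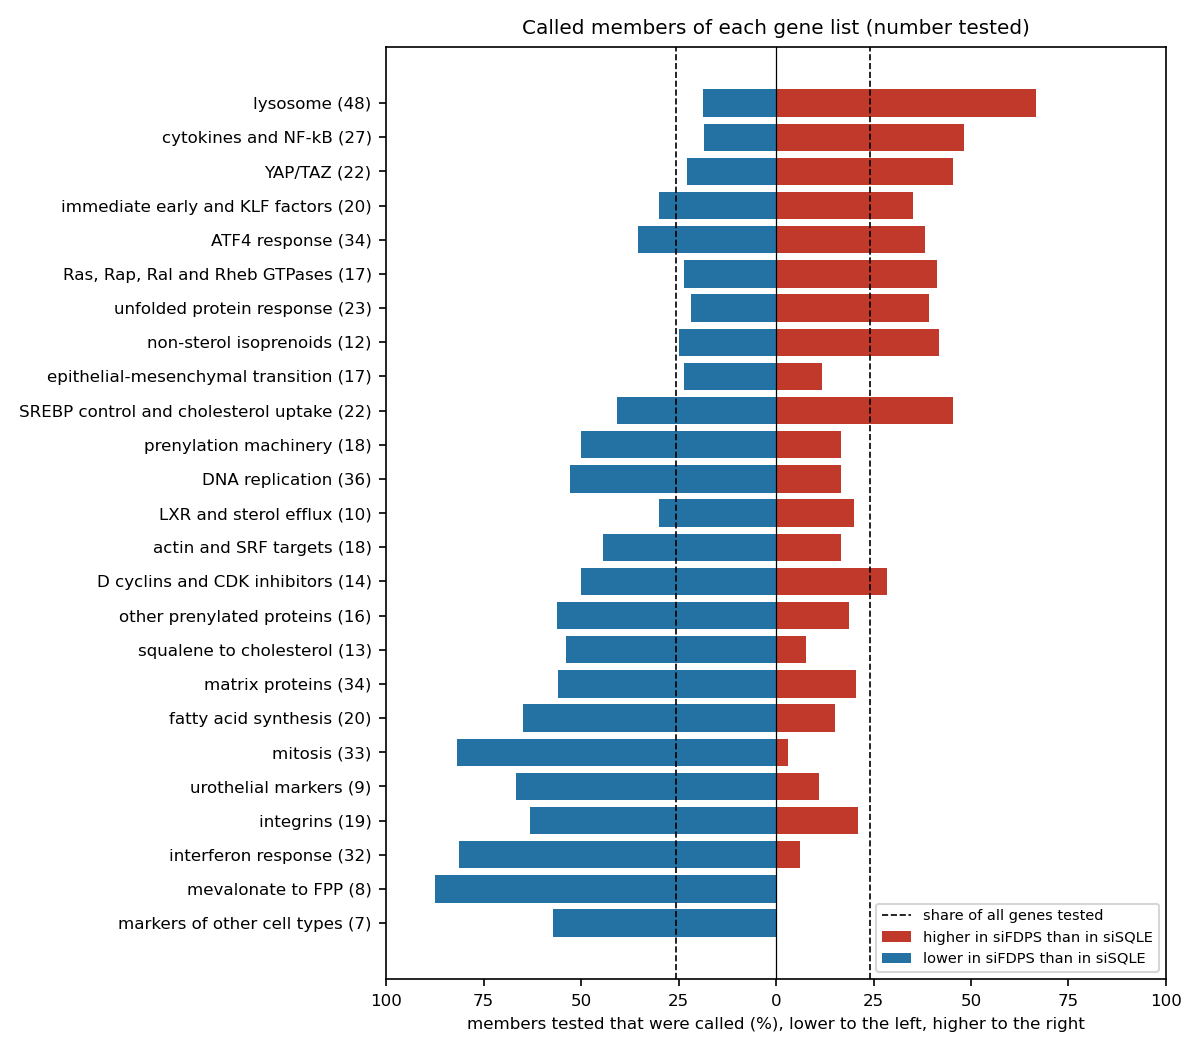
Percent of the tested members of each gene list shown that were called higher (red, right) or lower (blue, left) in siFDPS than in siSQLE libraries (edgeR, adjusted p under 0.05), with the number tested in parentheses. Dashed lines mark the shares of all genes tested, 24.1% higher and 25.7% lower. Lysosome genes extend farthest to the right, and mevalonate, mitosis and interferon genes farthest to the left.

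The enzymes of the MVA pathway upstream of the branch were lower in siFDPS than in siSQLE libraries. Of the 9 members from acetyl-CoA to FPP, 8 were tested (IDI2 had too few counts), 7 were called lower and none higher, with a median log2 fold change of −1.13. FDPS itself is 1 of the 7. The list had 1 member higher and 5 lower in siFDPS against siNC (median −0.38), and 7 higher and none lower in siSQLE against siNC (median 0.78).

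HMGCS1, which condenses acetoacetyl-CoA with acetyl-CoA, stood at 38.9, 38.4 and 37.8 CPM in siFDPS and at 158, 95.5 and 95.2 CPM in siSQLE libraries. All siSQLE libraries were above all siFDPS libraries, with 1 siSQLE library well above its group (log2 fold change −1.58 ± 0.21, adjusted p = 0.000911). The siNC level was 129 ± 8.96 CPM, so this gene was low in siFDPS and near the control in siSQLE libraries (log2 −0.16 against siNC, adjusted p = 0.605). MVK, mevalonate kinase, showed the opposite arrangement. It stood at 20.0, 18.9 and 17.6 CPM in siFDPS and 40.2, 43.1 and 42.0 CPM in siSQLE libraries (−1.13 ± 0.08, adjusted p = 7.53e-05), with siNC at 17.5 ± 1.48 CPM. MVD, mevalonate diphosphate decarboxylase, shared this arrangement, at 19.3 ± 1.89 CPM in siFDPS, 43.1 ± 9.74 CPM in siSQLE and 20.6 ± 2.36 CPM in siNC libraries. ACAT2, which makes acetoacetyl-CoA, and IDI1, the isomerase before FDPS, were below siNC in siFDPS (log2 −0.42 and −0.56) and above it in siSQLE (0.67 and 0.66). PMVK, phosphomevalonate kinase, was the exception. Its siFDPS libraries stood at 29.8, 28.8 and 29.9 CPM and its siSQLE libraries at 25.1, 28.5 and 27.2 CPM, a difference of 0.15 ± 0.08 that did not pass the test (adjusted p = 0.133), while both groups were above siNC (11.2 ± 0.56 CPM).

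After the branch, 7 of the 13 members from squalene to cholesterol were lower in siFDPS, and the only member higher was SQLE, the target of the other siRNA (median −0.43). FDFT1, squalene synthase, stood at 47.4, 53.2 and 59.6 CPM in siFDPS and 134, 116 and 124 CPM in siSQLE libraries. The groups were well apart (−1.20 ± 0.10, adjusted p = 0.000137). LBR, a sterol reductase that also anchors chromatin to the nuclear lamina, was at 93.7 ± 2.57 CPM in siFDPS and 258 ± 16.1 CPM in siSQLE libraries (−1.44 ± 0.07, adjusted p = 1.8e-05). TM7SF2, which carries out the same reduction, fell farther, to 1.51 ± 0.23 CPM in siFDPS against 6.86 ± 1.18 CPM in siSQLE libraries (−2.16 ± 0.19, adjusted p = 0.000175), but it overlaps VPS51 on the same strand and was below siNC (14.8 ± 1.34 CPM) in both groups. MSMO1, HSD17B7, SC5D and DHCR7, enzymes of the later steps, were lower, with log2 fold changes of −0.96, −0.55, −0.43 and −0.80. SC5D lost the call without siFDPS replicate 1 (adjusted p = 0.0572) or siFDPS replicate 2 (adjusted p = 0.0546) and with all 12 libraries in 1 fit (adjusted p = 0.362).

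LSS, lanosterol synthase, acts right after SQLE and did not separate the groups. It stood at 373, 360 and 357 CPM in siFDPS and 358, 302 and 340 CPM in siSQLE libraries, overlapping (0.14 ± 0.08, adjusted p = 0.155), and both groups were above the siNC level of 147 ± 12.8 CPM. CYP51A1, NSDHL and EBP did not pass the test either.

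**Figure D2:**
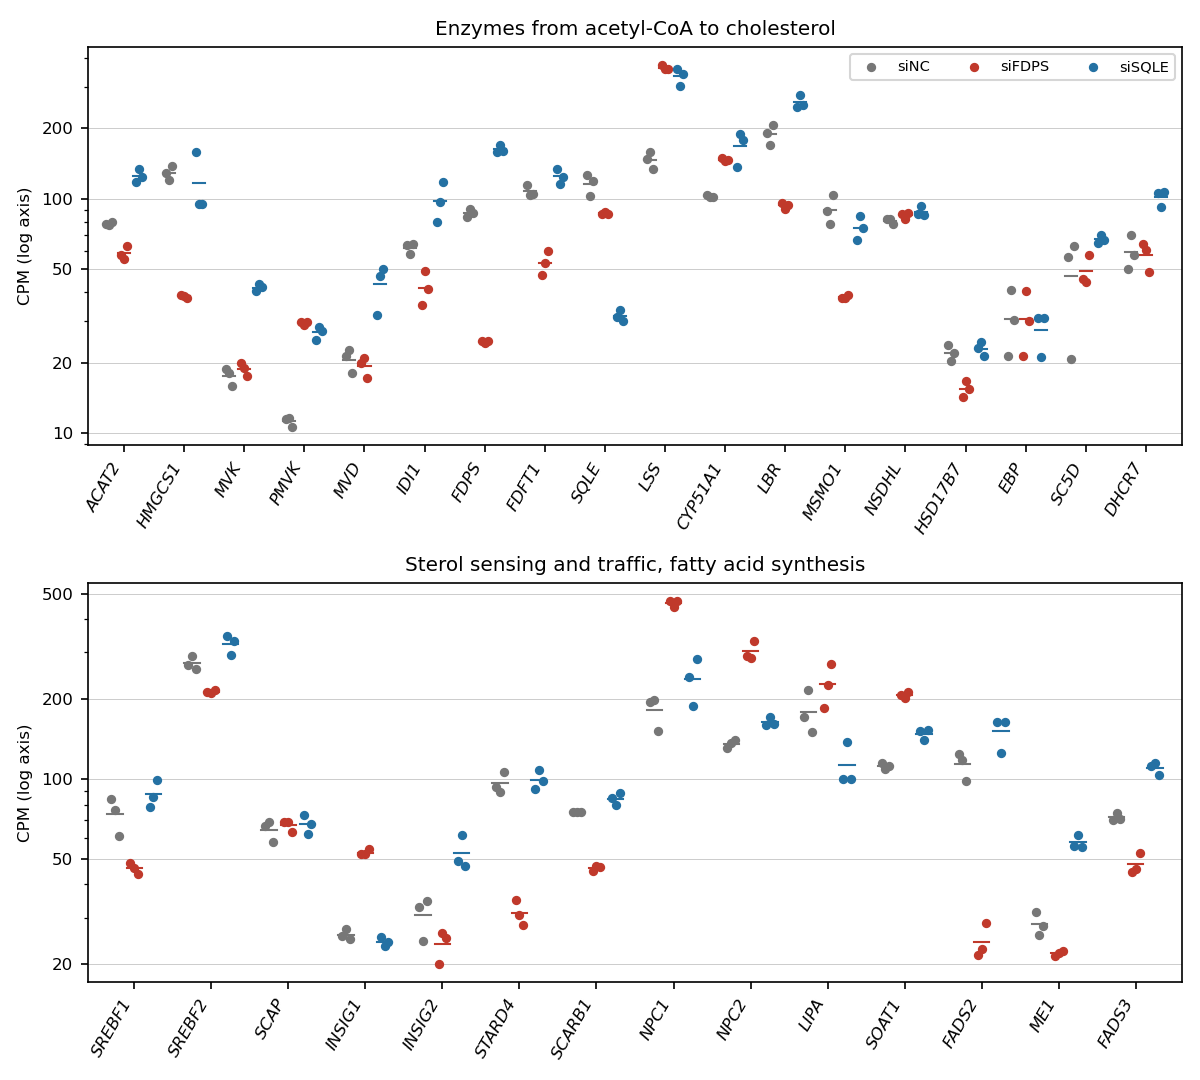
CPM (log axis) of 18 enzymes from acetyl-CoA to cholesterol (top) and of 14 genes of sterol sensing and traffic and fatty acid synthesis (bottom), 1 point a library and a bar at the mean of 3, for siNC (grey), siFDPS (red) and siSQLE (blue). MVK, MVD and DHCR7 have siFDPS near siNC with siSQLE above, HMGCS1, FDFT1, STARD4 and SCARB1 have siSQLE near siNC with siFDPS below, and PMVK and LSS have both knockdowns above siNC.

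Control of the pathway was split between genes that were higher and genes that were lower. Of 22 genes of SREBP control, uptake and storage of cholesterol, 10 were higher and 9 lower in siFDPS (median −0.13). The list as a whole thus leaned to neither side although 19 of 22 members were called. GRAMD1B and MBTPS1 (higher) and GRAMD1A (lower) lost the call under some alternatives (adjusted p up to 0.0928, 0.0662 and 0.0879). SREBF1 and SREBF2, which encode the SREBP factors, were lower. SREBF2 stood at 213, 212 and 216 CPM in siFDPS and 344, 293 and 331 CPM in siSQLE libraries (−0.58 ± 0.07, adjusted p = 0.000751), and SREBF1 at 46.0 ± 2.13 and 87.7 ± 10.8 CPM (−0.91 ± 0.10, adjusted p = 0.000395). Neither passed the test between siSQLE and siNC. SCAP did not differ past the threshold (0.01 ± 0.08, adjusted p = 0.939).

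The 2 INSIG genes went opposite ways. INSIG1 stood at 52.0, 51.9 and 54.3 CPM in siFDPS and 25.3, 23.4 and 24.2 CPM in siSQLE libraries, with no overlap (1.14 ± 0.07, adjusted p = 3.91e-05), and siNC was at the siSQLE level (25.9 ± 1.20 CPM). INSIG2 stood at 20.1, 26.4 and 25.1 CPM in siFDPS and 49.2, 61.3 and 46.8 CPM in siSQLE libraries (−1.12 ± 0.14, adjusted p = 0.000858). STARD4, a carrier of cholesterol between membranes, was at 35.0, 30.7 and 28.2 CPM in siFDPS and 91.4, 108 and 98.5 CPM in siSQLE libraries (−1.64 ± 0.11, adjusted p = 5.62e-05). SCARB1, a receptor for high density lipoprotein, was lower (−0.85 ± 0.06).

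Among the 10 members that were higher, NPC1, the lysosomal membrane transporter, stood at 467, 445 and 468 CPM in siFDPS and 242, 188 and 282 CPM in siSQLE libraries (0.98 ± 0.14, adjusted p = 0.00125). NPC2, its soluble partner, stood at 302 ± 23.9 and 164 ± 6.91 CPM (0.90 ± 0.07, adjusted p = 0.000111). LIPA, the acid lipase that frees cholesterol from its esters, differed by 1.03 ± 0.18 and SOAT1, which esterifies cholesterol, by 0.51 ± 0.06. For LIPA the siSQLE libraries were below siNC (log2 −0.68), whereas NPC1 was above siNC in siFDPS (1.34). Among 12 genes of LXR factors and sterol efflux, 10 were tested, with 2 higher and 3 lower. The 2 higher were NR1H2, an oxysterol receptor, at 29.9 ± 5.50 CPM against 11.1 ± 1.85 CPM, and ABCA1, the efflux pump, at 182 ± 3.03 CPM against 100 ± 18.2 CPM. Both were below siNC in siSQLE (log2 −1.17 and −0.84) and did not pass the test between siFDPS and siNC (0.28 and 0.02). The 3 lower included ABCG1, which also exports cholesterol, at 0.36 CPM against 1.09 CPM (−1.56, adjusted p = 0.00385), with siNC at 3.73 CPM.

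In fatty acid synthesis, of 20 tested, 13 were lower and 3 higher in siFDPS (median −0.65). FADS2, the delta-6 desaturase, stood at 21.6, 22.8 and 28.7 CPM in siFDPS and 163, 126 and 164 CPM in siSQLE libraries (−2.61 ± 0.15, adjusted p = 3.86e-05), with siNC at 113 ± 13.2 CPM. It overlaps FEN1 on the same strand. ME1, malic enzyme, which supplies NADPH, had a mean of 57.6 ± 3.50 CPM in siSQLE libraries and was lower in siFDPS (−1.37 ± 0.07, adjusted p = 2.95e-05), and FADS3 was lower (−1.19 ± 0.09). ELOVL7, an elongase, was higher by 0.56 ± 0.09. The other higher members, ACSL1 and ELOVL1, lost the call under some alternatives (adjusted p up to 0.0674 and 0.129). The list had 15 members lower in siFDPS against siNC, and 3 lower and 3 higher in siSQLE against siNC.

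Promoters were searched for motifs of the factors known to act on these pathways. Windows are from the RefSeq promoter table (GRCh38.p14), which matched 7 of the 9 genes upstream of the branch and 10 of the 13 after it, and 250 bases before each listed start were searched on both strands. CCAAT, the NF-Y box, was present for 5 of the 7 and 8 of the 10 genes, against 37.0% of the 27305 genes of the table. The box was also present for 20 of the 22 matched unfolded protein response genes and 18 of 28 ATF4 targets (medians 0.15 and 0.20). Among lists with medians below 0, it was present for 11 of 16 actin and SRF genes (median −0.38). The counts were 13 of 20 for fatty acid synthesis (−0.65) and 19 of 32 for DNA replication (−0.29). They were 9 of 24 for interferon genes (−1.02) and 3 of 16 for integrins (−0.98). The part of the box in the differences was not tested. TCACNCCAC, the core of the sterol regulatory element, was found for none of the 17 matched genes upstream of and after the branch, against 1.09% of genes. At so low a share, 17 genes are too few to show whether the motif was scarcer there. Variants of this core were not searched. The 150 bases before the start of FDPS (chr1:155308716-155308865, plus strand) and HMGCS1 (chr5:43313413-43313562, minus strand) follow, read along the gene's strand with CCAAT or its complement ATTGG in capitals. TOP2A, a mitotic gene described later, is given beside them (chr17:40417897-40418046, minus strand).
FDPS: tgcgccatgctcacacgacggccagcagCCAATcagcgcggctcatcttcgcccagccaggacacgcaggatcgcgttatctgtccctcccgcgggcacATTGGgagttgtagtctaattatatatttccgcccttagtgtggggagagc
HMGCS1: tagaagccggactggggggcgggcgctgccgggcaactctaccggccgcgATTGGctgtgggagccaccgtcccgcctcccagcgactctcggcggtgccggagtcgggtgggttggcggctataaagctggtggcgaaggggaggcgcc
TOP2A: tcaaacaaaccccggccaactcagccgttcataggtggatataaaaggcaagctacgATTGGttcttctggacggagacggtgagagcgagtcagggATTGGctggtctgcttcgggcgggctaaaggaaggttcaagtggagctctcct
A match describes the letters of the window and not binding.

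On the arms of the branch that lead away from sterols, members went both ways. Of 12 genes of non-sterol isoprenoids, 5 were higher and 3 lower in siFDPS (median 0.13). GGPS1, which makes geranylgeranyl pyrophosphate and overlaps TBCE on the same strand, did not pass the test (0.03 ± 0.30, adjusted p = 0.943). DHDDS and NUS1, the 2 subunits of the dolichol synthase, were higher by 0.48 ± 0.08 and 0.38 ± 0.09, and DOLK, dolichol kinase, by 0.32 ± 0.06. PDSS2, a subunit of the enzyme that builds the ubiquinone tail, was lower (−0.99 ± 0.11). COQ2, PDSS1 and DOLPP1 did not pass the test.

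Of 18 genes of the prenylation machinery, 3 were higher and 9 lower (median −0.20). CHM and CHML, escorts of Rab proteins to their prenyltransferase, were lower, with log2 fold changes of −0.69 ± 0.06 and −0.68 ± 0.06, and CHML overlaps OPN3 on the same strand. PCYOX1, which breaks down prenylcysteine, was higher by 0.57 ± 0.06. Among prenylated proteins other than small GTPases, 9 of 16 were lower and 3 higher. LMNB1 and LMNA, lamins of the nuclear envelope, were lower, LMNB1 at 38.7 ± 3.91 CPM against 102 ± 9.01 CPM (−1.38 ± 0.10, adjusted p = 8.25e-05) and LMNA at 220 ± 10.6 CPM against 441 ± 36.4 CPM (−0.98 ± 0.08, adjusted p = 9.97e-05). Of 17 tested members of the Ras, Rap, Ral and Rheb group, 7 were higher and 4 lower (median 0.16).

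YAP/TAZ genes, a list that mixes the factors, their partners and kinases and their targets, were higher more often than lower. Of 22, 10 were higher and 5 lower (median 0.27). Against siNC the list had 13 higher and 2 lower in siFDPS, and 10 higher and 4 lower in siSQLE. AXL, a receptor tyrosine kinase, stood at 472, 450 and 464 CPM in siFDPS and 111, 96.8 and 111 CPM in siSQLE libraries (2.14 ± 0.07, adjusted p = 1.05e-05). The siNC level of 425 ± 23.1 CPM was close to siFDPS, so AXL was low in siSQLE libraries (log2 −2.01 against siNC, adjusted p = 4.18e-05). AMOTL2, a brake on YAP, stood at 324, 176 and 249 CPM against 78.7, 63.7 and 78.1 CPM (1.78 ± 0.22, adjusted p = 0.00067). TEAD2, a DNA-binding partner, was higher by 1.15 ± 0.07, and WWTR1, which encodes TAZ itself, was lower (−1.01 ± 0.08). Among 18 tested genes of actin and its regulator SRF, 3 were higher and 8 lower (median −0.38). ACTA2, smooth muscle actin, was at 3.42, 2.81 and 3.05 CPM against 10.9, 9.97 and 9.30 CPM, and FLNA, filamin, at 2723 ± 15.6 CPM against 4175 ± 684 CPM. SRF was higher by 0.65 ± 0.08. The other higher members, TPM4 and FHL2, lost the call under some alternatives (adjusted p up to 0.0715 and 0.116).

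Of 19 tested integrins, the receptors that hold cells to the matrix, 12 were lower and 4 higher in siFDPS (median −0.98). The list was 9 lower and 4 higher in siFDPS against siNC, and 2 lower and 4 higher in siSQLE against siNC. ITGB4, the hemidesmosome subunit, stood at 3.76, 3.70 and 3.32 CPM in siFDPS and 35.5, 39.3 and 34.0 CPM in siSQLE libraries (−3.31 ± 0.11, adjusted p = 1.05e-05). ITGA11, a collagen receptor, was at 0.52 ± 0.13 CPM against 4.49 ± 0.52 CPM (−3.09 ± 0.22, adjusted p = 8.19e-05). ITGB1, the shared beta subunit of most integrins, went the other way, at 2055, 1669 and 1989 CPM in siFDPS and 1028, 1073 and 1044 CPM in siSQLE libraries (0.88 ± 0.08, adjusted p = 0.000237), with siNC at 1033 ± 21.6 CPM. ITGB3 was low in both groups, at 14.0 ± 0.77 and 16.1 ± 0.98 CPM against 75.7 ± 8.45 CPM in siNC libraries, and did not pass the test between them (−0.19 ± 0.09, adjusted p = 0.129).

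Matrix genes had 19 of 34 members lower and 7 higher in siFDPS (median −0.60). THBS2, thrombospondin 2, stood at 18.0, 18.8 and 17.6 CPM in siFDPS and 152, 136 and 142 CPM in siSQLE libraries (−2.96 ± 0.08, adjusted p = 9.8e-06), and COL13A1, a transmembrane collagen, at 9.18 ± 0.56 and 55.8 ± 1.98 CPM (−2.58 ± 0.08, adjusted p = 1.05e-05). Both were within 0.47 log2 units of siNC in siFDPS and far above it in siSQLE libraries (log2 3.44 and 2.88 against siNC). LAMA5, a basement membrane laminin, had the other arrangement, at 114, 116 and 83.1 CPM in siFDPS, 517, 426 and 737 CPM in siSQLE and 576 ± 143 CPM in siNC libraries (−2.40 ± 0.23, adjusted p = 0.000237). FN1, fibronectin, was higher in siFDPS, at 2081, 2136 and 2136 CPM against 897, 690 and 864 CPM (1.40 ± 0.10, adjusted p = 8.42e-05), and siNC was at 2300 ± 380 CPM. LAMA1 was above siNC in both groups and higher in siFDPS by 0.86 ± 0.18.

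**Figure D3:**
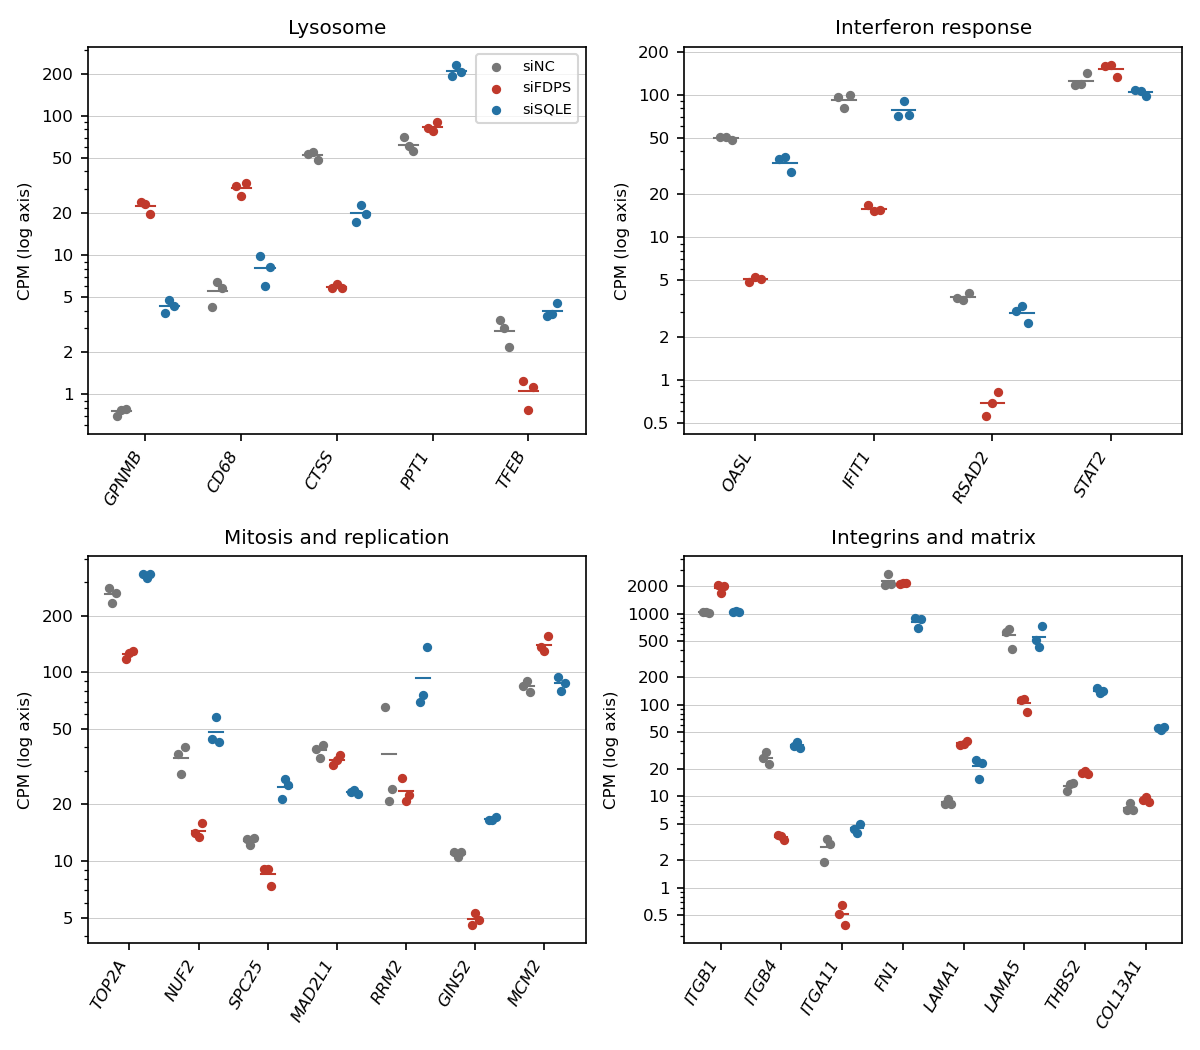
CPM (log axis) of named genes of 4 gene groups, 1 point a library and a bar at the mean of 3, for siNC (grey), siFDPS (red) and siSQLE (blue). GPNMB and CD68 are highest in siFDPS, OASL, IFIT1 and RSAD2 are lowest in siFDPS with siSQLE nearer to siNC, TOP2A, NUF2, SPC25 and GINS2 lie lowest in siFDPS and highest in siSQLE, and THBS2 and COL13A1 are high in siSQLE.

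Lysosome genes were the list most often higher in siFDPS. All 48 members were tested, and 32 were higher and 9 lower (85.4% called, median 0.48). The counts were 33 higher and 5 lower for siFDPS against siNC, and 17 higher and 6 lower of 47 for siSQLE against siNC. GPNMB, a glycoprotein of stressed lysosomes, stood at 24.2, 23.4 and 19.8 CPM in siFDPS and 3.85, 4.76 and 4.32 CPM in siSQLE libraries (2.40 ± 0.13, adjusted p = 3.31e-05). The siNC level was 0.75 ± 0.05 CPM, so GPNMB was above the control in both and farther in siFDPS. CD68, a lysosomal membrane glycoprotein, was at 31.5, 26.7 and 33.2 CPM against 9.87, 5.98 and 8.24 CPM (1.94 ± 0.19, adjusted p = 0.000271), and overlaps AC016876.2 on the same strand. ATP6V0D2, a proton pump subunit, was at 2.40, 2.03 and 1.40 CPM in siFDPS libraries, and the siSQLE libraries held 0, 3 and 0 counts. Its log2 fold change of 6.61 (adjusted p = 0.000359) rests on few counts. Lower members included TFEB, a master factor of lysosome genes, at 1.05 ± 0.25 CPM against 3.99 ± 0.47 CPM (−1.90 ± 0.21, adjusted p = 0.000456), CTSS, a protease, at 5.92 ± 0.22 CPM against 20.0 ± 2.85 CPM, and PPT1, a thioesterase, at 83.6 ± 6.35 CPM against 211 ± 20.9 CPM.

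TCACGTGA, the core of the CLEAR element to which TFEB and its relatives bind, reads the same on both strands and was present for 6 of the 32 lysosome genes matched in the promoter table, against 1.04% of all genes. The 6 were chosen by this match and not by the rule for named genes. ATP6V0D1, GALNS, CTSA, MCOLN1 and LAMP1 were higher in siFDPS, with log2 fold changes of 1.67, 0.96, 0.62, 0.52 and 0.46, and GAA was lower at −0.66. Outside the lysosome list the motif was present for 2 of the 10 matched genes of non-sterol isoprenoids (DHDDS and DOLK, both higher). It was also present for 2 of 32 of DNA replication, MCM2 (higher) and FEN1 (lower at −0.20, adjusted p = 0.0468). Each of 3 other lists held 1 such gene (INSIG1, TNFAIP3 and DUSP1, all higher). The windows of ATP6V0D1 (chr16:67481158-67481307, minus strand), MCOLN1 (chr19:7522474-7522623, plus strand), GAA (chr17:80101431-80101580, plus strand) and INSIG1 (chr7:155297728-155297877, plus strand) show the motif in capitals, and GAA is shown as the member that went the other way.
ATP6V0D1: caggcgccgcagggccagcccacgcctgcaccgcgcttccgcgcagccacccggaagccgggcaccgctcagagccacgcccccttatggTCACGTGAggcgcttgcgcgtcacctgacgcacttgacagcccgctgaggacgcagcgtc
MCOLN1: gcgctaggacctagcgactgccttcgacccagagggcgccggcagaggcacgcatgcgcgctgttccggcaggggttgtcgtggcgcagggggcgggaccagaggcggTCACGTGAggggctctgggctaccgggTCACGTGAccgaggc
GAA: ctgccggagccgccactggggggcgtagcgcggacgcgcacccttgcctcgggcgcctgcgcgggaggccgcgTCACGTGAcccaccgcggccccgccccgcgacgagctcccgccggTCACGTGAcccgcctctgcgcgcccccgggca
INSIG1: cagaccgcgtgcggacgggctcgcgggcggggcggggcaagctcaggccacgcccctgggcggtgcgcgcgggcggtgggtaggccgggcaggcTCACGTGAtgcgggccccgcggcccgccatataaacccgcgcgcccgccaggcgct
The nearest copy began 60, 15, 32 and 56 bases before the start, in that order.

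Interferon-stimulated genes, the antiviral set, were lower in siFDPS. Of 32 tested, 26 were lower and 2 higher (87.5% called, median −1.02), with 25 lower and none higher in siFDPS against siNC and 6 lower and 5 higher of 33 in siSQLE against siNC. OASL stood at 4.86, 5.29 and 5.09 CPM in siFDPS and 35.2, 36.3 and 28.6 CPM in siSQLE libraries (−2.69 ± 0.12, adjusted p = 1.8e-05). IFIT1, which binds viral RNA, stood at 16.9, 15.3 and 15.5 CPM against 71.3, 89.7 and 72.0 CPM (−2.27 ± 0.11, adjusted p = 2.41e-05). RSAD2 was lower as well (−2.07 ± 0.21). STAT2, a factor that carries the interferon signal, was higher (0.57 ± 0.10). Cytokine and NF-kB genes had 13 of 27 higher and 5 lower (median 0.28). IL6 was at 79.8 ± 7.10 CPM against 38.0 ± 1.70 CPM, TNFAIP3, an inhibitor of NF-kB, at 153 ± 17.0 CPM against 73.5 ± 2.24 CPM, and CXCL1, a neutrophil chemokine, was lower at 85.1 ± 3.09 CPM against 214 ± 25.1 CPM.

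Genes of cell division were lower in siFDPS than in siSQLE libraries. Of 33 mitosis genes, 27 were lower and 1 was higher (84.8% called, median −0.72). The list's medians were on opposite sides of the control: 25 members were lower and 1 higher in siFDPS against siNC (median −0.62), and 16 were higher and 4 lower in siSQLE against siNC (median 0.33). Some members were below siNC in both, such as CCNA2, cyclin A2, chosen after its values were seen, with log2 fold changes of −1.05 and −0.41. In bulk RNA, fewer dividing cells and less RNA per dividing cell cannot be told apart. TOP2A, topoisomerase II, stood at 118, 127 and 130 CPM in siFDPS and 330, 317 and 334 CPM in siSQLE libraries (−1.37 ± 0.06, adjusted p = 1.66e-05). NUF2 and SPC25, parts of the kinetochore complex that holds microtubules, were lower, with log2 fold changes of −1.71 ± 0.14 and −1.50 ± 0.14. MAD2L1, a checkpoint protein, was the member higher, at 34.3 ± 2.02 CPM against 23.2 ± 0.61 CPM. CCAAT was present for 23 of the 28 mitosis genes matched in the promoter table, TOP2A among them, against 37.0% of the genes of that table. It was present for 20 of the 22 matched unfolded protein response genes (median 0.15). Its part in the lower mitosis genes was not tested.

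DNA replication genes had 19 of 36 lower and 6 higher (median −0.29). GINS2, a part of the replicative helicase, stood at 4.57, 5.29 and 4.84 CPM in siFDPS and 16.5, 16.4 and 17.2 CPM in siSQLE libraries (−1.75 ± 0.10, adjusted p = 3.86e-05). RRM2, of ribonucleotide reductase, was at 23.6 ± 3.56 CPM against 93.7 ± 36.4 CPM, with 1 siSQLE library at 136 CPM. MCM2, another helicase part, was higher, at 136, 130 and 155 CPM against 94.8, 79.9 and 87.6 CPM (0.70 ± 0.09, adjusted p = 0.000926). Among 14 tested D cyclins and CDK inhibitors, 4 were higher and 7 lower. CCND1, cyclin D1, was below siNC (1526 ± 68.8 CPM) in both groups and lower in siSQLE, at 365, 369 and 404 CPM against 668, 647 and 683 CPM in siFDPS (0.83 ± 0.06, adjusted p = 7.07e-05). CDKN2D, an inhibitor of CDK4 and CDK6, was at 2.57 ± 0.23 CPM in siFDPS against 10.5 ± 0.76 CPM in siSQLE libraries, and RB1, which these kinases inactivate, at 53.9 ± 6.14 CPM against 130 ± 15.2 CPM.

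The list of ATF4 targets, which answer to amino acid shortage, was split, with 13 of 34 higher and 12 lower (median 0.20). SLC7A1, an arginine transporter, stood at 173, 174 and 175 CPM in siFDPS and 51.1, 38.8 and 50.6 CPM in siSQLE libraries (1.91 ± 0.11, adjusted p = 3.94e-05), and GDF15, a stress hormone, was higher by 1.66 ± 0.14. ALDH18A1, which makes proline from glutamate, was lower, at 85.7, 88.2 and 94.5 CPM against 327, 326 and 317 CPM (−1.83 ± 0.06, adjusted p = 1.05e-05), as was SLC7A5, a transporter of large neutral amino acids (−1.63 ± 0.09). ASNS, asparagine synthetase, was higher by 0.69 ± 0.16 (adjusted p = 0.00949), and PHGDH, of serine synthesis, did not pass the test (0.18 ± 0.08, adjusted p = 0.096). The unfolded protein response had 9 of 23 higher and 5 lower (median 0.15). Of its stress sensors, ERN1 and EIF2AK3 were higher (1.49 ± 0.08 for ERN1) and ATF6 was lower (−1.31 ± 0.07).

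Immediate early and KLF factors had 7 of 20 higher and 6 lower (median 0.21). FOSL1 stood at 173, 229 and 203 CPM in siFDPS and 68.0, 72.1 and 75.7 CPM in siSQLE libraries (1.51 ± 0.11, adjusted p = 7.86e-05), and its partner JUN went the other way, at 44.4, 41.6 and 39.8 CPM against 88.6, 95.8 and 117 CPM. MYC did not pass the test between the groups, at 4.32 ± 1.35 and 3.87 ± 0.565 CPM. Both groups were below siNC (29.9 CPM), with log2 fold changes of −2.79 (adjusted p = 0.0365) for siFDPS and −2.95 (adjusted p = 0.0411) for siSQLE. Genes of the epithelial-mesenchymal transition had 2 of 17 higher and 4 lower, 35.3% called against 49.7% of all genes. VIM, vimentin, was higher by 0.60 ± 0.07, with log2 fold changes against siNC of 0.17 in siFDPS and −0.41 in siSQLE. OCLN, a tight junction protein, was at 4.83 ± 0.15 CPM against 22.8 ± 0.61 CPM (−2.21 ± 0.09, adjusted p = 1.42e-05). Against siNC, OCLN was lower in siFDPS (log2 −0.94) and higher in siSQLE (1.29). CDH2, N-cadherin, did not pass the test between the groups (−0.12, adjusted p = 0.0862). SNAI2 was called higher, but stood at 18.8, 60.4 and 55.7 CPM in siFDPS libraries beside 8.76, 17.6 and 17.7 CPM, and lost the call when any library other than siFDPS replicate 1 was left out (adjusted p from 0.0507 to 0.0764). Urothelial markers had 6 of 9 tested lower and 1 higher. KRT8 was at 473 ± 36.8 CPM in siFDPS against 956 ± 53.3 CPM in siSQLE libraries, KRT19 at 13.2 ± 0.43 against 42.7 ± 0.82 CPM, and PPARG, a factor of luminal cells, was the member higher (0.91 ± 0.09). Of 7 tested markers of other cell types, 4 were lower, among them CDH5 of endothelium, at 0, 0.13 and 0.21 CPM against 3.96, 5.33 and 4.37 CPM.

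**Figure D4:**
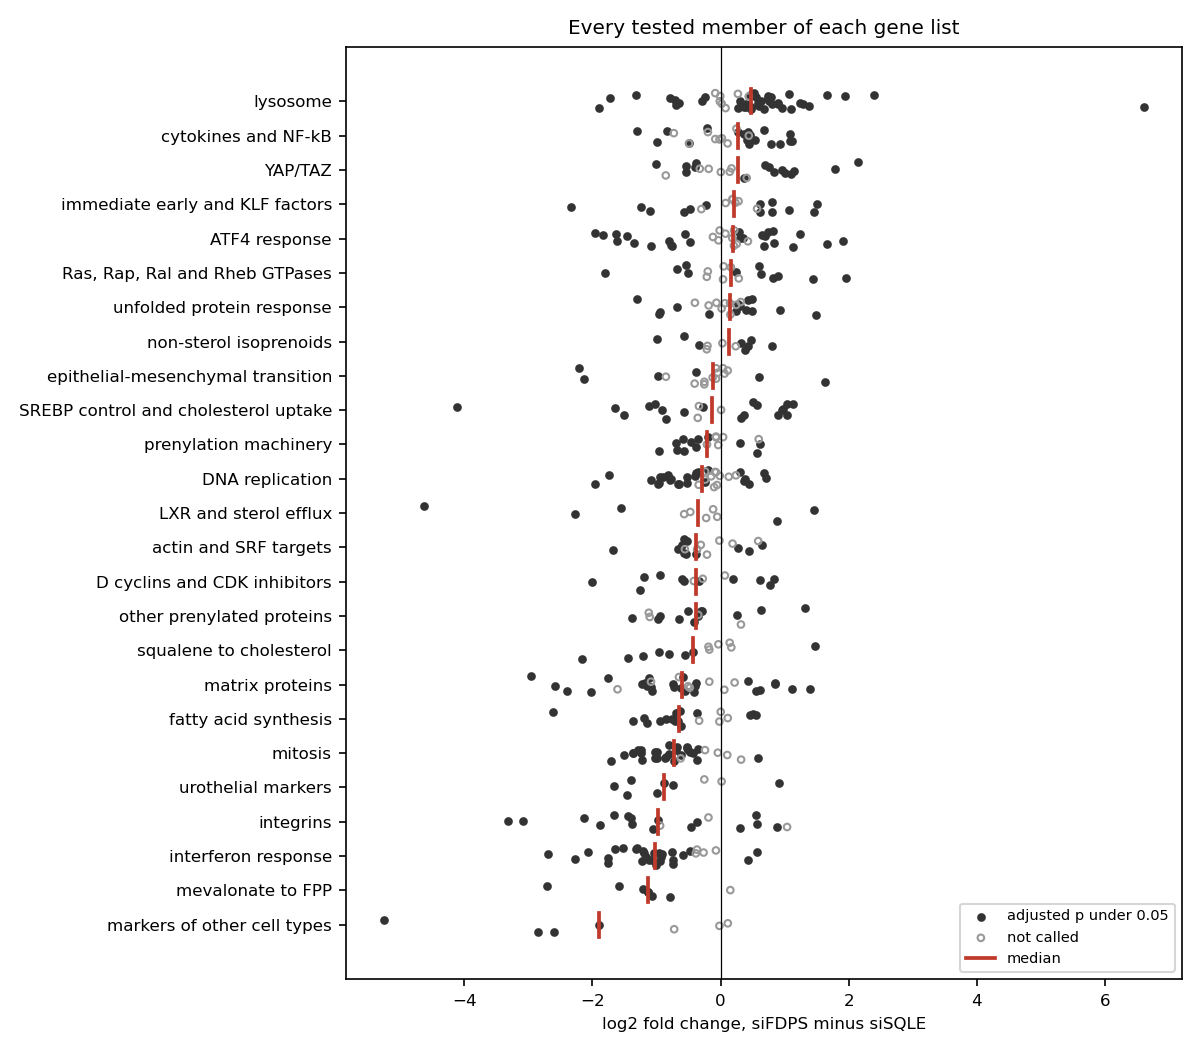
Log2 fold change of siFDPS minus siSQLE (edgeR) for every tested member of the gene lists shown, filled where the adjusted p was under 0.05 and open where it was not, with a red bar at each list's median. Medians run from −1.90 for markers of other cell types and −1.13 for the mevalonate enzymes to 0.48 for lysosome genes, and most lists hold members on both sides of 0.

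**Figure D5:**
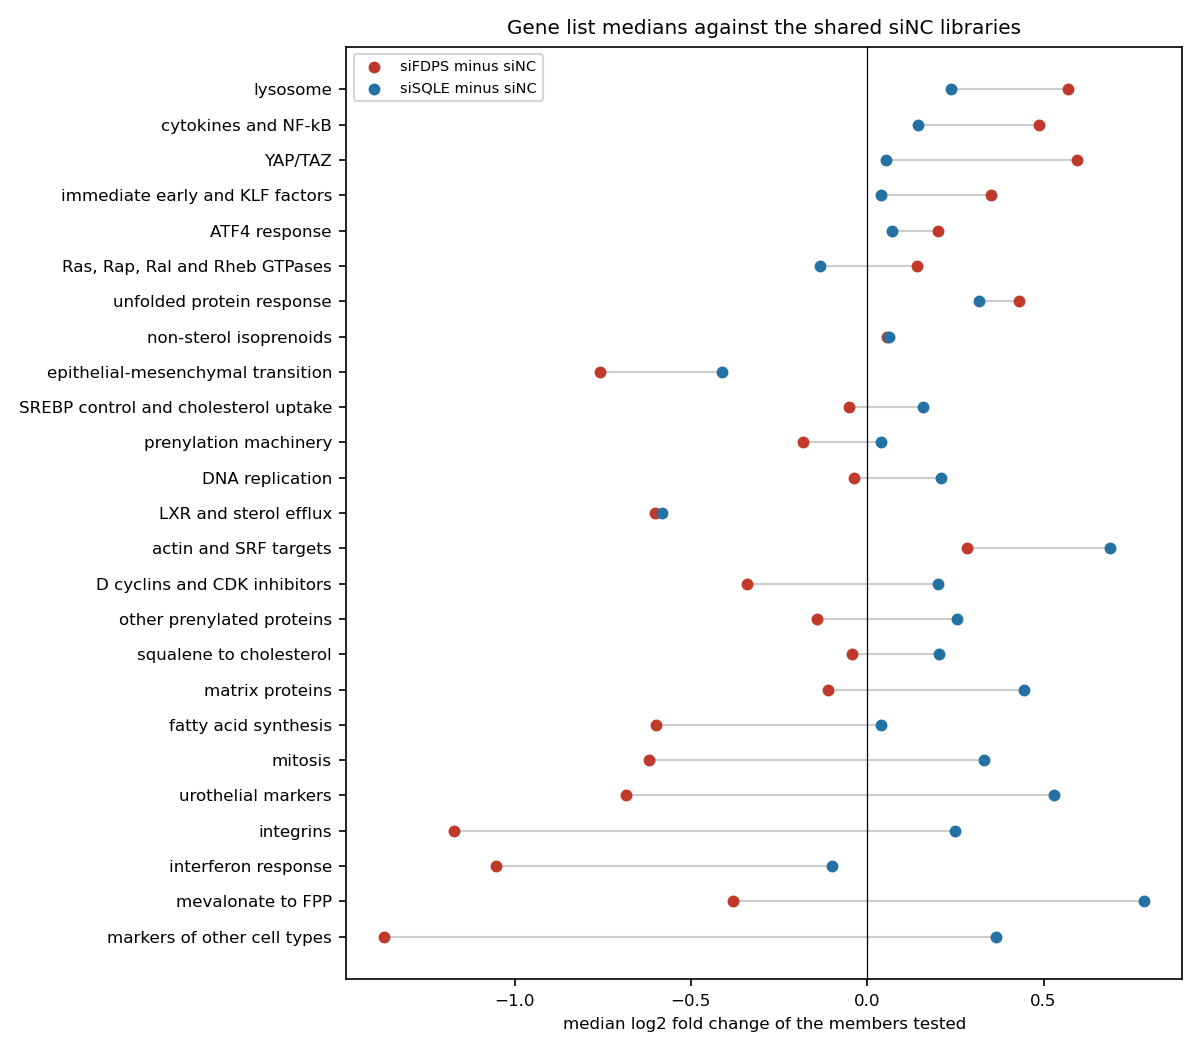
Median log2 fold change of the tested members of each gene list in siFDPS minus siNC (red) and siSQLE minus siNC (blue). The 2 comparisons share the siNC libraries. Mitosis genes lie at −0.62 and 0.33, mevalonate genes at −0.38 and 0.78, interferon genes at −1.05 and −0.10, and lysosome genes at 0.57 and 0.24.

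The largest differences were ranked among called protein-coding genes with at least 50 counts on average. These genes also had no overlap between groups and no other gene overlapping them on the same strand. The top genes came from no single list. ATP6V0D2, given above, had a log2 fold change of 6.61 and was outside this ranking. Highest in siFDPS within it was SCG5, a chaperone of the secretory pathway. It was at 27.6, 20.9 and 23.7 CPM against 0.60, 1.31 and 0.80 CPM in siSQLE libraries (4.76 ± 0.29, adjusted p = 4.66e-05). IL24, a cytokine, was at 38.7 ± 4.78 CPM against 2.37 ± 1.04 CPM (4.05 ± 0.30, adjusted p = 8.91e-05). COX7A2L, an assembly factor of respiratory supercomplexes, was at 190, 92.0 and 198 CPM in siFDPS and 11.4, 12.7 and 6.90 CPM in siSQLE libraries (3.97 ± 0.37, adjusted p = 0.000222). Against siNC, COX7A2L was lower in siSQLE (−3.18, adjusted p = 0.000735), and its difference in siFDPS was 0.78 and did not pass the test (adjusted p = 0.109). SUN3, SLC16A9, SYT14, SULT1C2 and C1orf116 completed the 8 highest, with log2 fold changes of 3.38 to 3.65. SLC16A9, a carnitine transporter, stood at 47.2 ± 2.45 CPM against 3.92 ± 0.41 CPM.

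At the other end, PLEKHG4, a guanine nucleotide exchange factor, was at 0, 0 and 0.18 CPM in siFDPS and 2.91, 2.10 and 2.86 CPM in siSQLE libraries, and at 9.76 ± 2.14 CPM in siNC libraries. CDH5, given above, differed by −5.25 ± 0.62 (adjusted p = 0.000567). BAIAP2L2, an epithelial linker of membrane to actin, was at 0.09 ± 0.04 CPM against 2.54 ± 0.28 CPM (−4.72 ± 0.31, adjusted p = 5.72e-05). GAL3ST1, a sulfotransferase, CA9, a carbonic anhydrase, and LIMS2, an adaptor at cell adhesions, were lower, with log2 fold changes of −4.28 ± 0.33, −3.93 ± 0.49 and −3.85 ± 0.45. Leaving out 1 siFDPS library moved some of these differences by over 1.5-fold, to −6.05 for CDH5 and −4.74 for CA9 without replicate 3 and to −4.68 for LIMS2 without replicate 2. For PLEKHG4 the log2 fold change ran from −10.2 to −4.80 over the alternatives tried. These 6 genes lay under 10 CPM in every siFDPS, siSQLE and siNC mean, and their siFDPS values rest on few counts.

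How reads were shared among the transcripts of a gene bears on these sums. In 12998 of the 18979 genes tested (68.5%) the same transcript held the most counts in all 6 libraries. COX7A2L was not among them: its transcript ENST00000234301 held 4926, 1538 and 6725 counts in the siFDPS libraries and ENST00000378669 held 4867, 3315 and 4258. Among the 12998 genes, 49.9% were called when p was adjusted over them alone. Of the lists described above, 17 of 19 mitosis, 17 of 20 interferon and 8 of 12 fatty acid genes were lower, and 19 of 27 lysosome genes higher. For integrins the lean was smaller, with 6 of 12 lower, 4 higher and a median of −0.41 in place of −0.98. Only 2 of the 8 genes upstream of the branch met the condition, and 1 of them was called lower. The p-values measure the spread among these libraries, since the labels do not say how the replicate cultures were separated.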

How the data were processed

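T24 RNA was sequenced from libraries of a stranded kit with molecular identifiers, and the submitters' processing notes name Trimmomatic 0.36, STAR 2.5.3, featureCounts, Subread 1.5.1 and GRCh38. The authors deposited raw counts per transcript, whose coordinates were those of GENCODE 29 for 99.92% of 206601 transcripts. How reads were divided among transcripts, and whether identifiers and strand were used, is not given in the sources used here. Counts were summed over the transcripts of each of 58735 genes. Groups were taken from the sample labels. siFDPS was compared with siSQLE, and each with siNC, with edgeR 4.0.16 (quasi-likelihood test, TMM, default filter on low counts, Benjamini-Hochberg threshold 0.05), in R 4.3.3, tested on simulated data. DESeq2 1.42.0, other scalings and filters, all 12 libraries in 1 fit, a replicate block and each library left out were tried.

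The genes and the 26 lists were chosen with earlier results of these data known. Named were the targets, all members of 4 pathway lists, up to 3 genes per direction in every other list and the 8 protein-coding genes with the largest difference per direction over all genes (called, at least 50 counts on average, no overlap between groups, and for the last set no gene overlapping on the same strand), plus genes the paper studied. Values of some genes that this rule names are not reported here. A comparison of protein C-termini was not run, and promoter sequences are from RefSeq (GRCh38.p14). Library totals lay between 51307581 and 59938677 counts.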

Additional observations from a re-analysis of the deposited data

How the results depend on the processing

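The count of DEGs between siFDPS and siSQLE (9440) stayed within 1.5 times under every alternative: 9644 with DESeq2, 9444 with RLE factors, 9476 with upper-quartile factors, 9951 with all 12 libraries in 1 fit, 8488 of 14478 genes with at least 1 CPM in 3 libraries, 8338 of 37414 genes with no filter on low counts, and 7837 to 9251 with 1 library left out, lowest without siFDPS replicate 2. Replicate numbers did not pair the libraries (correlations of same-numbered deviations −0.02, −0.03 and 0.01). With a replicate block there were 8064 DEGs between siFDPS and siSQLE, 8964 for siFDPS against siNC and 3525 for siSQLE against siNC, the last down from 5744. That count was 6295 with DESeq2, 6996 with all 12 libraries in 1 fit and 4095 to 5223 with 1 library left out. Limited to genes with the same leading transcript, an alternative chosen after seeing the data, which tests fewer genes, 3304 were higher and 3182 lower, and 256 in place of 396 different list genes were called. Of 2797 comparisons of named genes with an alternative, 2689 kept direction and call, 102 lost and 6 gained the call, and none reversed. Of those lost, 77 came from leaving out 1 library. Genes with very low values in a group, such as CDH5 and PLEKHG4 in siFDPS, rest on few counts there, and the cause of lost calls was not tested.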
